A study of Mus musculus with 24 samples.

Results

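The nuclear genome of the mouse carries most of the genes for the machinery of oxidative phosphorylation, and their mRNA levels were followed here in intestinal organoids that had lost the kinases CDK8 and CDK19, or had been treated with an inhibitor of both. Members were protein-coding nuclear genes whose symbols begin with Ndufa, Ndufb, Ndufc, Ndufs, Ndufv, Uqcr, Cox4, Cox5, Cox6, Cox7, Cox8 or Atp5, together with Sdha, Sdhb, Sdhc and Sdhd. The rule took 86 gene IDs with 85 symbols (Atp5o stands for 2 IDs) out of 54146 genes in the tables. Of these, 36 belong to complex I, 4 to complex II, 8 to complex III, 20 to complex IV and 18 to complex V. Another 21 genes with such symbols were left out, 13 because they are not protein-coding and 8 because they are Ndufaf assembly factors.

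The inner mitochondrial membrane holds the 5 complexes that these genes help to build. Complex I (NADH dehydrogenase) and complex II (succinate dehydrogenase) pass electrons to ubiquinone, complex III (cytochrome bc1) hands them to cytochrome c, and complex IV (cytochrome c oxidase) reduces oxygen. The proton gradient that complexes I, III and IV build drives the ATP synthase, complex V. All complexes except complex II also contain subunits encoded in mitochondrial DNA, so the nuclear and mitochondrial genomes both contribute. In the gut, enterocytes are rich in mitochondria, while Paneth cells are known for glycolysis.

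The 24 libraries formed 2 experiments of 12, each with 4 groups of 3. In the genotype experiment all organoids had received 600 nM 4-OHT (4-hydroxytamoxifen) for 7 days, wild type included. Groups were WT, Cdk8KO (Cdk8-/-), Cdk19KO (Cdk19-/-) and the double knockout (DoubleKO). Cdk8 carried a floxed exon 2 that CreERT2 removes under the Villin promoter, which is active in gut epithelium. Beside floxed mice with CreERT2, the study names WT mice in one place and floxed mice without CreERT2 in another as organoid sources. An effect of Cdk8 loss therefore cannot be told apart from one of CreERT2 or of the source mice. Cdk19 was cut in exon 1 by virally delivered CRISPR/Cas9 and the cells were expanded clonally, so an effect of Cdk19 loss and differences between clones cannot be told apart. In the Senexin experiment, WT organoids were exposed to DMSO or to 10 µM Senexin B, a small molecule that inhibits CDK8 and CDK19, for 16 h or 24 h. The study describes its conditions as biological triplicates, and speaks of several double knockout clones. It does not tie the sequenced libraries to clones or animals in the sources used here, so the p-values measure the spread between these libraries.

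Libraries of the genotype experiment had 14636861 to 15473180 counted reads and those of the Senexin experiment 27075937 to 28405118. Reads that aligned to more than one place made up 19.5% to 22.9% of the first and 7.25% to 8.17% of the second. The labels of the genotype libraries give the cell type as 4T1, a mouse mammary carcinoma line, beside an intestinal tissue. Every one of the 7 epithelial markers of the gut was present in every library, with a summed level between 5399 and 7454 CPM (counts scaled to a common library size). The 6 mammary markers summed to at most 1.93 CPM, and the casein gene Csn2 had no count in any library. Summed mesenchymal and immune markers stayed at or below 29.9 and 3.98 CPM. In 2 libraries Cdk19 went against the label. Cdk19 stood between 47.6 and 50.1 CPM in WT, at 48.8, 28.1 and 28.3 CPM in the libraries labelled Cdk19KO 1 to 3, and at 27.0, 23.8 and 51.7 CPM in the libraries labelled DoubleKO 1 to 3. Cdk19KO replicate 1 and DoubleKO replicate 3 therefore had Cdk19 mRNA at about the WT level, and whether they hold the labelled genotype is not known from these data. Counts and named calls of the comparisons with these groups are also given without them. Whole-gene counts do not show the loss of exon 2, and Cdk8 was not lower in any knockout group. In bulk RNA, fewer cells of a type and less RNA per cell cannot be told apart.

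Enough reads for a test were found for 77 of the 86 IDs among 15602 genes tested in the genotype experiment and for 78 among 15467 in the Senexin experiment. Untested in both were Cox4i2, Cox6a2, Cox6b2, Cox7b2, Cox8b, Cox8c, Ndufa4l2 and the second Atp5o ID, and Ndufs5 was also untested in the genotype experiment. Most of the untested genes are isoforms that other tissues use. Among the genes for alternative forms of a complex IV subunit, the level per kilobase of transcript in WT was 568 CPM/kb for Cox4i1, 426 for Cox6a1, 376 for Cox6b1 and 641 for Cox8a, whereas Cox8b and Cox8c had no count. Cox7a2, the common form of its subunit, reached 131 CPM/kb, the related Cox7a2l 84.7 and the muscle form Cox7a1 20.1. Atp5g1, Atp5g2 and Atp5g3 encode the same mature c subunit of the ATP synthase rotor, and Atp5g3 was the highest of them in both experiments, at 510 CPM/kb in WT and 757 CPM/kb in the 16 h vehicle group. Other transcripts hold 11.1%, 38.4% and 0% of the 50-base words of Atp5g1, Atp5g2 and Atp5g3. The transcript lengths used were 4715, 731 and 723 bases, so the ranking of these 3 genes is uncertain.

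Atp5b, the catalytic beta subunit of ATP synthase, had the highest level of all members at 987 ± 34.4 CPM/kb (SD, n = 3) in WT and 1153 ± 40.5 CPM/kb in the 16 h vehicle group. Cox8a (641 ± 7.48 CPM/kb) and Atp5a1, the alpha subunit (637 ± 11.2), came next in WT and did not differ beyond their spread. In the 16 h vehicle group the next places were held by Cox4i1 (803 ± 81.9), Atp5g3 (757 ± 53.8), Cox8a (735 ± 83.0) and Uqcrh (705 ± 67.0), whose spreads overlap. All tested members together took 1.32% ± 0.02 (SD, n = 3) of the counts in WT and 1.69% ± 0.09 in the 16 h vehicle group.

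**Figure D1:**
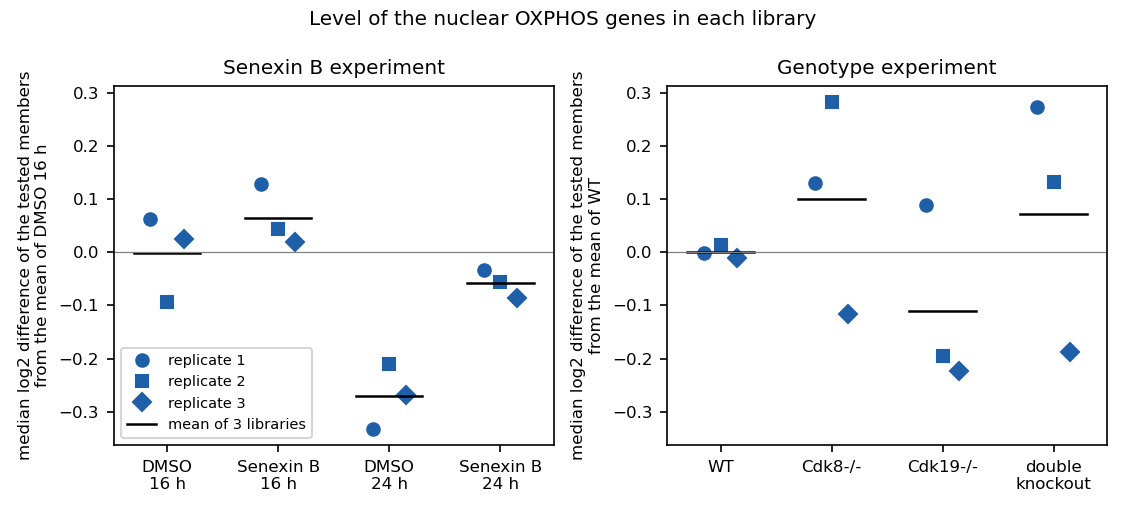
Each point is 1 library, and its height is the median over the tested members of the log2 difference in CPM from the mean of the first group of that experiment (WT or DMSO 16 h). The 3 vehicle libraries at 24 h lie at -0.33, -0.21 and -0.27, below the 9 other libraries of the Senexin experiment, and Cdk8KO, Cdk19KO and DoubleKO libraries each spread on both sides of 0.

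Culture time in the vehicle came with lower mRNA for most of the members. Between 16 h and 24 h in DMSO, 51 of 78 tested members fell and none rose at an adjusted p under 0.05 (edgeR's quasi-likelihood test with Benjamini-Hochberg adjustment over all genes), while 11.1% of all genes were called and 6.59% were called lower. The median log2 fold change of the members was -0.28, 76 of 78 values were negative, and the median over all genes tested was 0.00. The 3 libraries of the 2 groups did not overlap for 71 of 78 members, against 28.7% of all genes. Each complex took part. Complex I had 28 of 36 members lower, complex II 2 of 4, complex III 5 of 8, complex IV 9 of 13 and complex V 7 of 17.

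Ndufa11, an accessory subunit in the membrane arm of complex I (chr17:56717767-56722141, plus strand, GRCm38), had 54.6, 47.9 and 51.1 CPM in the vehicle libraries at 16 h and 32.3, 37.4 and 36.5 CPM at 24 h. The groups did not overlap, and the log2 fold change was -0.53 ± 0.08 (SE, adjusted p = 0.0021). Uqcrq (chr11:53427922-53430831, minus strand), a small subunit of complex III, had 179, 160 and 178 CPM at 16 h and 116, 123 and 113 CPM at 24 h. All 3 later libraries lay below all 3 earlier ones, with a log2 fold change of -0.55 ± 0.08 (adjusted p = 0.0024). Ndufb6, another accessory subunit of complex I, fell by 0.40 ± 0.06 on the log2 scale, although 39% of its exon sequence is overlapped by Smim27 on the other strand. Atp5g1 fell by 0.37 ± 0.06 and Ndufv2, which carries an iron-sulphur cluster of complex I, by 0.36 ± 0.06. Sdhb, the iron-sulphur subunit of complex II, fell from 205, 198 and 202 CPM to 148, 176 and 149 CPM (adjusted p = 0.0085). Sdha, the flavoprotein beside it, had a log2 fold change of -0.12 ± 0.05 and was not called (adjusted p = 0.167).

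The size of this count depended on single libraries. Without vehicle replicate 1 at 24 h, 11 members were called (3.33% of all genes), without replicate 3 at 24 h 17 (6.01%), without replicate 3 at 16 h 13 (2.75%), and with only these 2 groups in the fit 11 (2.57%), all of them lower. The median log2 fold change lay between -0.33 and -0.24 whichever library was left out. Replicate numbers were correlated in the Senexin experiment, although the labels do not say what same-numbered libraries share, and with the replicate number as a block 64 members were called lower, with 21.2% of all genes called.

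After 24 h with Senexin B, member mRNA stood higher than in the vehicle of the same time. Of 78 members, 43 rose and none fell, a share to be read against 27.5% of all genes called and 14.8% called higher. Without vehicle replicate 1 at 24 h the count was 26, with 19.2% of all genes called. The median log2 fold change was 0.23 with 75 positive values, and over all genes tested it was 0.00. The libraries did not overlap for 57 of 78 members and for 45.6% of all genes. This comparison and the one over time share the 3 vehicle libraries at 24 h. For 55 of 78 members, these 3 libraries lay below all 9 others of the experiment, as they did for 7.79% of all genes. The Senexin B libraries at 24 h had member medians of -0.03, -0.06 and -0.09 relative to the 16 h vehicle, near 0, where the 24 h vehicle libraries had -0.33, -0.21 and -0.27.

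**Figure D2:**
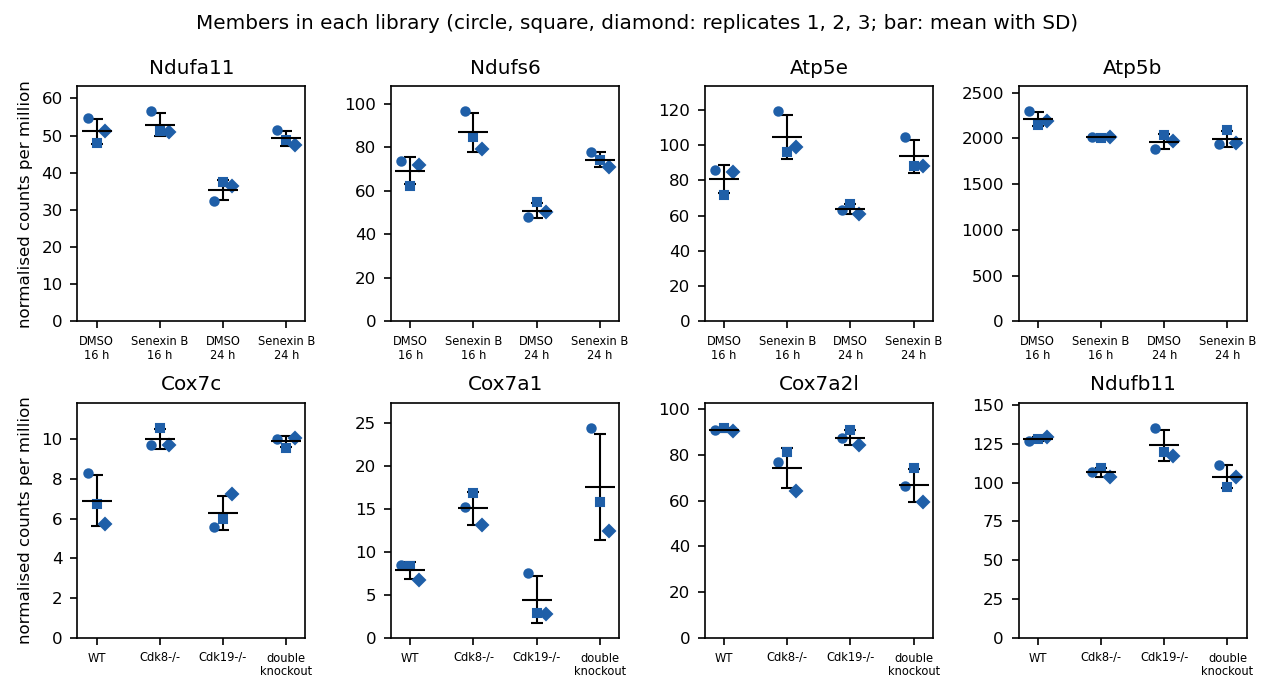
CPM of 8 members in every library (linear axes from 0), with Ndufa11, Ndufs6, Atp5e and Atp5b in the Senexin experiment above and Cox7c, Cox7a1, Cox7a2l and Ndufb11 in the genotype experiment below. Circles, squares and diamonds are replicates 1, 2 and 3, and bars the mean with SD. Ndufa11, Ndufs6 and Atp5e have their lowest values in the 3 vehicle libraries at 24 h, while those of Atp5b overlap between Senexin B and vehicle at 24 h.

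Ndufs6, a subunit of complex I that binds zinc (chr13:73319838-73328542, minus strand), had 47.8, 54.8 and 50.2 CPM in vehicle and 77.9, 73.9 and 71.0 CPM with Senexin B at 24 h. The groups were far apart, and its log2 fold change was 0.54 ± 0.09 (SE, adjusted p = 0.000691). Atp5e, the epsilon subunit in the central stalk of ATP synthase (chr2:174461072-174464105, minus strand), had 63.2, 66.8 and 61.0 CPM in vehicle and 105, 88.4 and 88.3 CPM with the inhibitor. Its log2 fold change was 0.56 ± 0.10 (adjusted p = 0.0012). Ndufa11 had 51.6, 48.8 and 47.5 CPM with Senexin B, all above the 3 vehicle libraries given above, for a log2 fold change of 0.48 ± 0.08 (adjusted p = 0.000609). The other members with the smallest adjusted p were Atp5mpl and Atp5k, small membrane subunits of ATP synthase, with 0.50 ± 0.09 and 0.52 ± 0.10, and the complex I accessory subunits Ndufa2, Ndufc1 and Ndufa8 with 0.56 ± 0.11, 0.51 ± 0.10 and 0.35 ± 0.06.

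The promoters of 5 genes are shown because 4 of them rose with Senexin B, were lower with time in the vehicle and carry a textbook motif of nuclear respiratory gene promoters, while the fifth, Atp5b, was not called in either comparison. The 4 were picked for an NRF1 or ETS word, so they cannot show whether word and change go together. Ndufs6 and Ndufc1 also rose with Senexin B but had neither word. Sdhb and Sdhd, not called with Senexin B, had an ETS word. Each is the 250 bases before the RefSeq start in GRCm38.p6, read 5′ to 3′ on the gene's strand, and capitals mark matches on either strand to NRF1 (GCGCATGCG), ETS (CCGGAAG), YY1 (AAGATGGCG), ERR (TCAAGGTCA) or SP1 (GGGCGG) words. They lie at chr17:56717512-56717761 (plus) for Ndufa11, chr2:174464102-174464351 (minus) for Atp5e, chr2:36049339-36049588 (minus) for Ndufa8, chr5:108434400-108434649 (minus) for Atp5k and chr10:128083057-128083306 (plus) for Atp5b.
Ndufa11: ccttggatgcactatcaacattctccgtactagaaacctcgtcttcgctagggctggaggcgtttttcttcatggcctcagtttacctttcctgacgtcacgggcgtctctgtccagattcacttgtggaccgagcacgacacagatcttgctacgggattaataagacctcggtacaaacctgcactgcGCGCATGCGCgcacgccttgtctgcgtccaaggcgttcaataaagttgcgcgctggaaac
Atp5e: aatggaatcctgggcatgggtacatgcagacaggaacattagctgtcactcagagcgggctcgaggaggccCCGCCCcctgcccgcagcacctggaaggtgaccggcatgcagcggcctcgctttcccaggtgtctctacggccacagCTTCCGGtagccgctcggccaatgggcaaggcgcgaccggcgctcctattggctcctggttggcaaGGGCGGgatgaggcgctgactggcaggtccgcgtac
Ndufa8: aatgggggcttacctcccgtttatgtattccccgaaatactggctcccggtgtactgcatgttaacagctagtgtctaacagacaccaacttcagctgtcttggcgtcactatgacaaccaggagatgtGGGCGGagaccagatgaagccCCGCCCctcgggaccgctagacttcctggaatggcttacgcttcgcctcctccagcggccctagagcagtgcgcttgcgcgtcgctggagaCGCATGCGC
Atp5k: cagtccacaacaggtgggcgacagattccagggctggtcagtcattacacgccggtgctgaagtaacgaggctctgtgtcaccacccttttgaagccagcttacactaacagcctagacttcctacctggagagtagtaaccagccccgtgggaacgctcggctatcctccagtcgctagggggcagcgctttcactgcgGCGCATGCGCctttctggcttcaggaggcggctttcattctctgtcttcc
Atp5b: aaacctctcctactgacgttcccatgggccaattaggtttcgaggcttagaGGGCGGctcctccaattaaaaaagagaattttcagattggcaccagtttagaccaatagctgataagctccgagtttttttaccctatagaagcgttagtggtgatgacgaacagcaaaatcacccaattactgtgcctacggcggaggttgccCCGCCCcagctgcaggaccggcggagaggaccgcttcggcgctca
The capitals are an NRF1 word that overlaps its own reverse complement in Ndufa11 and Atp5k, an ETS word and 2 SP1 words in Atp5e, an NRF1 word and 2 SP1 words in Ndufa8, and 2 SP1 words in Atp5b.

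Promoter windows of 300 bases were listed for 68 of the 86 members. The NRF1 word, bound by a factor known for respiratory genes, stood in 8 of them (11.8%) against 1.81% of all 27025 promoters. The ETS word, also read by GABP, stood in 15 (22.1% against 9.12%), the YY1 word in 6 (8.82% against 1.49%) and the ERR word in 2 (2.94% against 0.407%). SP1 words stood in 39.7% against 35.9% and CCAAT in 42.6% against 37.9%. With Senexin B at 24 h, 7 of the 8 tested members with an NRF1 word rose and 30 of the 56 without it, and over time in the vehicle 6 of 8 fell and 40 of 56. For the ETS word the counts with Senexin B were 10 of 15 and 27 of 49, for YY1 5 of 6 and 32 of 58, for ERR 1 of 2 and 36 of 62, for SP1 14 of 25 and 23 of 39 and for CCAAT 14 of 27 and 23 of 37. Differences between these counts were not tested. A match of letters is a description and not a binding site.

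The complexes did not all have the same share of called members. With Senexin B at 24 h, 19 of 36 members of complex I rose (median log2 fold change 0.22), 5 of 8 of complex III (0.28), 8 of 13 of complex IV (0.24) and 11 of 17 of complex V (0.23). Of all genes 27.5% were called and 14.8% called higher. None of the 4 succinate dehydrogenase genes passed, with values of 0.00 ± 0.05 for Sdha, 0.18 ± 0.07 for Sdhb, 0.13 ± 0.07 for Sdhc and 0.12 ± 0.06 for Sdhd. Sdhb had an adjusted p of 0.0741, and 0.0353 with the replicate block. With only 4 genes, no call in complex II lies near the 14.8% of all genes, and differences between complexes were not tested.

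**Figure D3:**
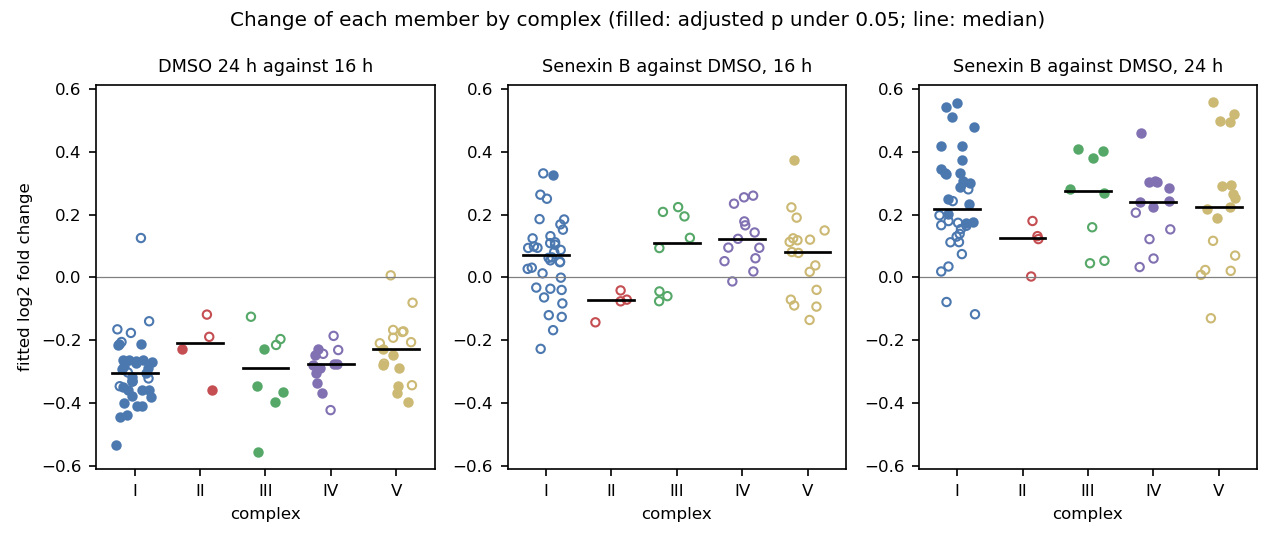
Fitted log2 fold change of each tested member, grouped by complex, in the vehicle over time and with Senexin B at 16 h and 24 h. Filled points passed the test, open points did not, and lines are the medians. Values with time lie almost all below 0 and those with Senexin B at 24 h almost all above 0, with medians for complex I of -0.30 and 0.22.

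Of 11 core subunits on a list of catalytic or redox-active members and their close partners, 4 rose with Senexin B and the median was 0.16, compared with 39 of the 67 other members and a median of 0.24. Of all genes 14.8% were called higher, and the difference between core and other members was not tested. Those that rose were Cox4i1 (0.30 ± 0.08, adjusted p = 0.0091) and Cox5a (0.23 ± 0.08, adjusted p = 0.0437), nuclear partners of the catalytic core of complex IV, Uqcrc1, a core protein of complex III (0.27 ± 0.07, adjusted p = 0.0156), and Ndufv1, which binds NADH in complex I (0.18 ± 0.06, adjusted p = 0.0467). Ndufv1 and Cox5a lost the call without any 1 of 5 of the 6 libraries compared, and Uqcrc1 without vehicle replicate 1 or 3. Atp5b had 1878, 2041 and 1967 CPM in vehicle and 1933, 2095 and 1946 CPM with Senexin B. Its groups overlapped, and the log2 fold change was 0.02 with a 95% interval from -0.10 to 0.14. Ndufs1, which carries iron-sulphur clusters of complex I, was at -0.08 (interval -0.23 to 0.07), the Rieske protein Uqcrfs1 at 0.05 (-0.08 to 0.17) and Atp5a1 at 0.07 (-0.04 to 0.18), none of them called.

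At 16 h the inhibitor left fewer calls. Atp5e and Ndufs6 rose, no member fell, and 7.75% of all genes were called, 4.36% higher. The median over members was 0.08, and 22 of 78 members had libraries that did not overlap, against 24.8% of all genes. That median lay between 0.04 without vehicle replicate 2 and 0.11 without Senexin B replicate 3. Atp5e had 86.1, 71.8 and 84.7 CPM in vehicle and 119, 96.4 and 98.7 CPM with Senexin B, which did not overlap (0.37 ± 0.10, adjusted p = 0.0320). Ndufs6 had 73.7, 62.0 and 72.0 CPM in vehicle and 96.6, 84.9 and 79.2 CPM with the inhibitor (0.33 ± 0.09, adjusted p = 0.0369). Cox4i1 came closest among the others, at 0.26 ± 0.08 (adjusted p = 0.0541). It was called under some alternatives, as by DESeq2 (adjusted p = 0.0177) and, with edgeR, with the replicate block (0.0107) or without vehicle replicate 1 (0.0052). With the replicate block 10 members were called higher and 1, Ndufs1, lower, with 14.8% of all genes called, a share close to that of the members. Without vehicle replicate 2 or Senexin B replicate 1 no member was called.

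Whether the inhibitor effect differed between the times was tested as an interaction. No member was called, and 0% of all genes were, with 16 members and 12.9% of all genes at an unadjusted p under 0.05 and no member called by DESeq2. The median of the member interaction was 0.16, with 73 of 78 values positive. Ndufa11 had the smallest p of the members, 0.43 ± 0.11 on the log2 scale (unadjusted p = 0.0014, adjusted p = 0.264). Its 16 h libraries with Senexin B, at 56.6, 51.4 and 51.0 CPM, overlapped those of the vehicle.

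Under Senexin B, 5 members changed between 16 h and 24 h. This comparison was added after the others had been seen. Uqcrq (-0.40 ± 0.08), Ndufb6 (-0.29 ± 0.06), Atp5g1 (-0.27 ± 0.06), Uqcr10 (-0.28 ± 0.07) and Ndufc2 (-0.26 ± 0.07) fell, none rose, and 4.46% of all genes were called, 2.4% lower. The median was -0.11, and 12 members were called lower with the replicate block, with 9.18% of all genes called. Uqcrq had 227, 192 and 186 CPM at 16 h and 165, 146 and 148 CPM at 24 h, still above the 3 vehicle libraries at 24 h. Leaving out Senexin B replicate 2 or 3 at 24 h ended all 5 calls. The difference between the time courses is the interaction above.

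**Figure D4:**
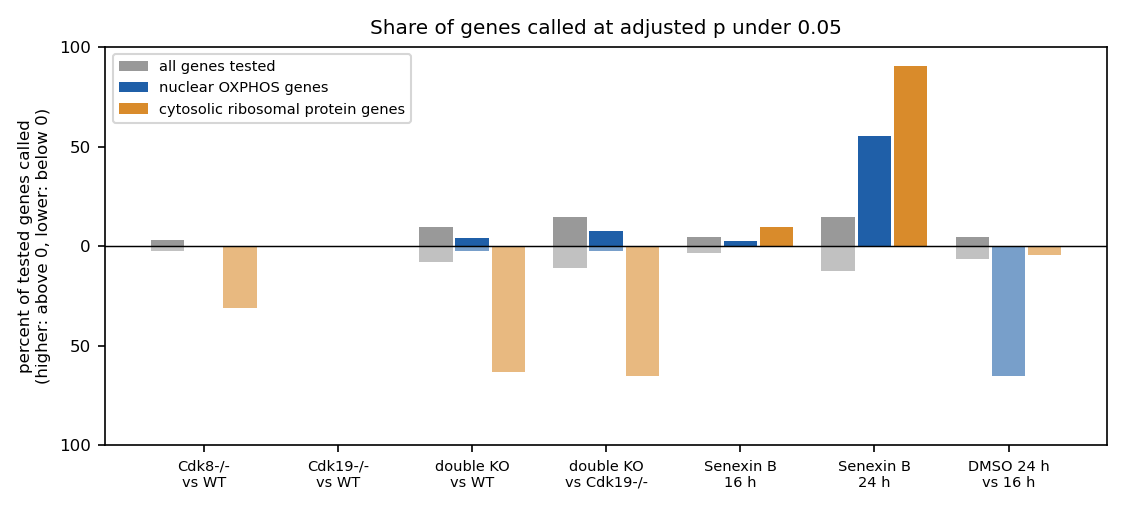
Percent of tested genes called higher (above 0) or lower (below 0) in 7 comparisons, for all genes, the nuclear oxidative phosphorylation members and cytosolic ribosomal protein genes. In the vehicle over time and with Senexin B at 24 h the members' shares (51 and 43 of 78) stand above those of all genes. In the genotype comparisons they do not with all libraries, although 38 of 77 rose in the double knockout against Cdk19KO without the 2 libraries with Cdk19 at the WT level (28.5% of all genes called).

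Genes that serve the same pathway were counted from lists. Mitochondrial ribosomal proteins, which translate the subunits made inside mitochondria, had 43 of 77 higher with Senexin B at 24 h (median 0.24) and 36 of 77 lower over time in the vehicle (median -0.25). These counts became 21 without vehicle replicate 1 or Senexin B replicate 2, and 3 with only the 2 vehicle groups in the fit. Cytosolic ribosomal proteins, which are likewise short and abundant, had 78 of 86 higher with the inhibitor (median 0.43) and 4 of 86 lower over time (median -0.12). Of 47 assembly factors 17 rose, among them Sdhaf1 for complex II (0.73 ± 0.13) and Ndufaf4 for complex I (0.65 ± 0.16), and Cox15, needed to make heme a, fell by 0.33 ± 0.06. Over time in the vehicle 14 assembly factors fell.

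None of 13 tricarboxylic acid cycle genes was called with Senexin B at 24 h (0 also at an unadjusted p under 0.05), and 5 fell over time in the vehicle. Of 15 genes for mobile electron carriers and other donors to ubiquinone, Cycs, which encodes cytochrome c (0.34 ± 0.11), and Dhodh rose with Senexin B and Gpd2 fell, and 5 fell over time, with Cycs at -0.53 ± 0.11 and Cyc1 at -0.41 ± 0.07. Among 15 regulators of mitochondrial genes, Pprc1 (0.32 ± 0.08), Ppargc1b (0.31 ± 0.10), Ssbp1 (0.27 ± 0.09) and Tfam, which packages mitochondrial DNA (0.21 ± 0.07), rose and Gabpa, the DNA-binding part of GABP, fell by 0.31 ± 0.11. No regulator was called over time. Of 11 tested genes of mitochondrial DNA, mt-Nd6 (1.32 ± 0.16), mt-Cytb (0.44 ± 0.13), mt-Nd4 (0.41 ± 0.14) and mt-Nd1 (0.36 ± 0.10) rose with Senexin B, and mt-Nd6 was the single one that fell over time.

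Markers of several cell types moved in the same comparisons as the members. With Senexin B at 24 h, 5 of 6 Paneth markers fell (median -0.90), and their sum was 1304 to 1774 CPM against 2866 to 3069 CPM in vehicle. No Paneth marker was at 0. Over time in the vehicle none of the 6 was called. Of 10 enterocyte markers 4 rose and 1 fell with Senexin B, and the sums overlapped (4217 to 4699 against 3992 to 4399 CPM). Of 6 proliferation markers 1 rose with Senexin B and 1 fell over time. Other lists with Senexin B at 24 h had 4 of 7 goblet markers higher and 1 lower (sums 2987 to 3363 against 3469 to 3951 CPM), 3 of 6 enteroendocrine markers higher (284 to 402 against 285 to 314 CPM), 2 of 3 tested tuft markers higher (24.5 to 29.1 against 19.6 to 22.4 CPM) and 1 of 5 stem and crypt markers lower (1763 to 2080 against 1809 to 2233 CPM). Over time in the vehicle 2 of 6 enteroendocrine markers rose, and their sum went from 202 to 225 CPM at 16 h to 285 to 314 CPM at 24 h, which did not overlap. Of the other lists over time, 1 goblet marker rose, and 1 enterocyte and 1 stem and crypt marker fell. The part of these markers in the members' values was not tested.

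Members have short transcripts, with a median length of 787 bases and 23 under 600. With Senexin B at 24 h, the median change was 0.33 for the 18 tested members under 600 bases and 0.17 for the 131 other protein-coding genes of that length. From 600 to under 1000 bases the medians were 0.27 for 27 members and 0.18 for 556 other genes. From 1000 to under 2000 bases they were 0.16 for 25 members and 0.11 for 2634 others, and from 2000 bases 0.10 for 8 members and -0.04 for 9116 others. Over time in the vehicle, members stood at -0.35, -0.29, -0.22 and -0.20 in the same classes and other genes at -0.12, -0.17, -0.10 and 0.04. Among members the medians lay nearer to 0 with each longer class, while among other genes the class from 600 to under 1000 bases had the values farthest from 0. The part of length in the members' values was not tested.

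**Figure D5:**
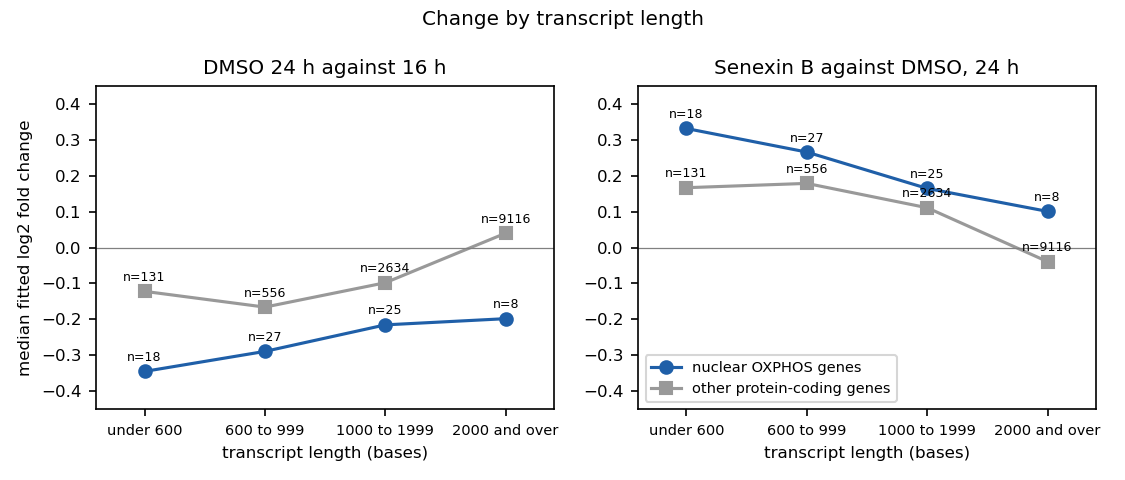
Median log2 fold change by class of transcript length for members and for other protein-coding genes, over time in the vehicle and with Senexin B at 24 h. With Senexin B members lie above the other genes in each class, at 0.33 against 0.17 under 600 bases, and over time in the vehicle below them.

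Loss of CDK8 alone gave no called member. In Cdk8KO against WT, 0 of 77 members passed, with 9 at an unadjusted p under 0.05 (21.4% of all genes) and 2 called by DESeq2, while 5.15% of all genes were called. The median was 0.10 with 61 positive values, between 0.01 without Cdk8KO replicate 2 and 0.20 without Cdk8KO replicate 3, and 15 of 77 members did not overlap, against 29.6% of all genes. The 3 Cdk8KO libraries had member medians of 0.13, 0.28 and -0.12 relative to WT, where WT libraries lay between -0.01 and 0.01. The smallest p belonged to Ndufb11, an accessory subunit of complex I (-0.27 ± 0.08, adjusted p = 0.0751), Cox7c (0.53 ± 0.16, adjusted p = 0.0780) and Cox7a2l (-0.30 ± 0.10, adjusted p = 0.114), none of them called. Ndufb11 was called lower by DESeq2 (-0.27, adjusted p = 0.0253) and with only these 2 groups in the fit (-0.28, edgeR, adjusted p = 0.0489). Cox7c was called by DESeq2 (adjusted p = 0.0488) and, at 0.88, with unstranded counts (edgeR, adjusted p = 0.000689).

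In Cdk19KO against WT, 0 members and 0% of all genes were called, with 4 members and 10.8% of all genes at an unadjusted p under 0.05 and no member by DESeq2. The median was -0.11, between -0.21 without Cdk19KO replicate 1 and -0.03 without Cdk19KO replicate 3, and 9 of 77 members did not overlap, against 20% of all genes. The libraries labelled Cdk19KO had member medians of 0.09, -0.20 and -0.22, and the first of these is the one with Cdk19 at the WT level. Ndufv1 (0.35 ± 0.14, adjusted p = 0.390), Cox7a1 (-0.83 ± 0.36, adjusted p = 0.417) and Cox8a (0.25 ± 0.11, adjusted p = 0.420) had the smallest p and were not called. Without the 2 libraries that went against their labels, Cox7a1 was the 1 member called, lower (-1.46, adjusted p = 0.0081), with 4.21% of all genes called. In the same fit 4 of 10 enterocyte (median -0.80) and 3 of 7 goblet markers (-0.81) were lower and 3 of 5 stem and crypt markers (0.50) higher. With all libraries no marker was called, but the summed enterocyte markers (5589 to 7566 against 8053 to 8691 CPM in WT) and stem and crypt markers (3309 to 5220 against 2488 to 2834 CPM) did not overlap. The sums of mitochondrial DNA genes (48117 to 55059 against 57556 to 64609 CPM) and of gut epithelial markers (5399 to 6359 against 6450 to 6775 CPM) did not overlap either. The part of these markers in the value of Cox7a1 was not tested.

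In the double knockout 3 members rose and 2 fell against WT. Of all genes 17.3% were called, 9.41% higher and 7.9% lower. The median over members was 0.08, and 10 of 77 members did not overlap, against 38.8% of all genes. Leaving out 1 library moved the median between -0.00, without DoubleKO replicate 1, and 0.20, without DoubleKO replicate 3. Without the 2 libraries, 13 members rose and 2 fell, with 19.0% of all genes called. With all libraries, the double knockout libraries had member medians of 0.27, 0.13 and -0.19, and the lowest is the one with Cdk19 at the WT level.

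The 3 that rose were Cox7a1, Cox7c and Uqcrb. Cox7a1 (chr7:30184144-30186078, plus strand) had 8.55, 8.39 and 6.78 CPM in WT, 15.3, 16.9 and 13.1 in Cdk8KO, 7.62, 2.86 and 2.84 in Cdk19KO and 24.5, 15.8 and 12.5 in the double knockout. All 3 double knockout libraries lay above WT, with a log2 fold change of 1.15 ± 0.34 (adjusted p = 0.0354). Cox7c (chr13:86044816-86046904, minus strand), a small subunit of complex IV, had 8.28, 6.74 and 5.73 CPM in WT and 10.0, 9.56 and 10.1 CPM in the double knockout (0.51 ± 0.16, adjusted p = 0.0432). Uqcrb (chr13:66900617-66905378, minus strand), which binds ubiquinone in complex III, had 35.7, 35.5 and 37.3 CPM in WT and 51.4, 51.0 and 38.9 CPM in the double knockout (0.38 ± 0.12, adjusted p = 0.0486). Other transcripts hold 22.1% of the 50-base words of Cox7c and 25.5% of those of Uqcrb, so both levels are uncertain.

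Cox7a2l and Ndufb11 fell. Cox7a2l (chr17:83501918-83517330, minus strand), a factor for supercomplexes of complexes III and IV, had 91.1, 92.0 and 90.3 CPM in WT and 66.4, 74.3 and 59.5 CPM in the double knockout, which did not overlap (-0.45 ± 0.10, adjusted p = 0.0109). In Cdk8KO it had 77.0, 81.2 and 64.4 CPM and in Cdk19KO 87.6, 90.8 and 84.5 CPM. Ndufb11 (chrX:20615326-20617619, minus strand) had 127, 128 and 130 CPM in WT and 111, 97.1 and 103 CPM in the double knockout (-0.30 ± 0.08, adjusted p = 0.0215). Rbm10 on the other strand overlaps 12.9% of its exon sequence, and the genotype libraries were not stranded, so their reads cannot be told apart there. Without the 2 libraries Cox7c was not called (0.50, adjusted p = 0.0719), and Cox7a1 (1.35), Uqcrb (0.50), Cox7a2l (-0.37) and Ndufb11 (-0.30) were. With unstranded counts Cox7c had 0.92, and Cox7a1 (adjusted p = 0.0609) and Uqcrb (adjusted p = 0.0606) were not called. Of the 5 calls, only that of Cox7a2l held with each WT or double knockout library left out in turn.

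Between the double knockout and Cdk8KO, 0 members were called, with 0.0256% of all genes called, 15.5% of all genes but no member at an unadjusted p under 0.05, no member by DESeq2 and a median of -0.03. That median took either sign, from -0.10 without Cdk8KO replicate 3 to 0.09 without DoubleKO replicate 3. It was also 0.09 without both libraries that had Cdk19 at the WT level, with 0 members and 0.139% of all genes called. Against Cdk19KO, 6 members rose and 2 fell, with 25.3% of all genes called, 14.4% higher and 11% lower. Those with the smallest adjusted p were Cox7a1 (1.99 ± 0.35), Uqcrb (0.62 ± 0.12), Ndufa1, a small complex I subunit (0.72 ± 0.17), Cox7c (0.65 ± 0.16) and Cox7a2l (-0.39 ± 0.10). Both groups of this comparison hold a library with Cdk19 at the WT level. Without these, Cox7c was not called (0.55, adjusted p = 0.0581), 38 members rose and 1 fell, the median went from 0.16 to 0.38, and 28.5% of all genes were called. Leaving out 1 library gave between 3 members, without Cdk19KO replicate 2, and 25, without DoubleKO replicate 3, beside 15.1% and 24.0% of all genes. The median then lay between 0.08, without DoubleKO replicate 1, and 0.27, without DoubleKO replicate 3. Cell type markers moved in the same comparison. With both libraries that had Cdk19 at the WT level left out, 9 of 10 enterocyte (median log2 fold change 1.80), 7 of 7 goblet (1.95) and 5 of 6 Paneth markers (1.16) were higher and 5 of 5 stem and crypt markers (-1.09) lower, and with all libraries the counts were 9, 6, 5 and 5. Their part in the members' values was not tested.

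The test of additivity asked whether the double knockout departed from the sum of both single changes. It called 0 members and 0.0256% of all genes, with 3 members and 14.5% of all genes at an unadjusted p under 0.05 and no member by DESeq2. The median was 0.09. Without the 2 libraries, 2 members were called higher, with 4.6% of all genes called, and the median was 0.31. Leaving out 1 library moved the median between -0.01, without DoubleKO replicate 1, and 0.19, without DoubleKO replicate 3.

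The same lists were counted in the double knockout. Cytosolic ribosomal proteins had 53 of 84 lower (median -0.62), and 26 of 84 were lower in Cdk8KO. Mitochondrial ribosomal proteins had 2 of 77 lower. Of the regulators Tfam (-0.54 ± 0.10), Twnk, the mitochondrial DNA helicase (-0.64 ± 0.15), and Ssbp1 (-0.31 ± 0.09) fell, while none of 7 tested mitochondrial DNA genes was called. Timmdc1, Cox17 and Coa5 rose among 47 assembly factors, Gpd2 rose and Coq8a and Dhodh fell among 15 carriers, and Cs and Ogdh rose and 1 gene fell among 13 cycle genes. Marker lists moved as well. All 6 Paneth markers rose (summed 2544 to 5201 CPM against 1288 to 1706 in WT), 6 of 10 enterocyte markers rose (13771 to 18938 against 8053 to 8691 CPM), 4 of 5 stem and crypt markers fell (1781 to 1978 against 2488 to 2834 CPM) and 3 of 6 proliferation markers fell. Of 3 tested tuft markers 2 fell (13.7 to 35.2 against 40.4 to 62.7 CPM), and 2 of 7 goblet markers rose (2877 to 4689 against 2319 to 3249 CPM). Without the 2 libraries, the double knockout had 48 of 84 cytosolic and 1 of 77 mitochondrial ribosomal protein genes lower, 3 assembly factors higher (Cox17 not among them), 4 cycle genes higher and 4 regulators lower, and Dhodh was not called. The marker counts were then 4 of 6 Paneth, 8 of 10 enterocyte and 4 of 7 goblet markers higher, and 4 of 5 stem and crypt, 2 of 6 proliferation and 3 of 3 tuft markers lower. In Cdk8KO, 6 of 6 Paneth, 2 of 10 enterocyte (10738 to 11599 against 8053 to 8691 CPM) and 2 of 7 goblet markers rose and 1 of 5 stem and crypt markers fell. Their part in the members' values was not tested.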

How the data were processed

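RNA was sequenced from 24 libraries of mouse intestinal organoids, 3 in each of 8 groups. Reads per gene had been counted and deposited by the authors as one table of counts per library. Per the study's methods, alignment used STAR 2.6.0a on Ensembl release 93, and the submitters' notes name STAR 2.6.0c, FastQC and build GRCm38.p6. Genotype libraries were oligo(dT)-selected with 50 bp single reads. The labels call the Senexin libraries rRNA-depleted in one place and oligo(dT)-selected in another, so tests were made only within an experiment.

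The table's column 4 was used. It holds a median of 49.6% to 49.8% of a gene's unstranded count in the genotype libraries, which are not stranded, and 91.0% to 94.0% in the Senexin libraries. Reads left out of column 4 were 63.1% to 65.2% and 21.5% to 25.1% of each library. Of 54146 gene IDs, 54079 matched GENCODE vM21 symbols. The tables hold no other sample's columns, and no 2 libraries had identical counts.

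Counts were filtered with filterByExpr, scaled by TMM and tested with edgeR 4.0.16 (quasi-likelihood test, Benjamini-Hochberg over all genes, R 4.3.3), 1 model per experiment with the 4 groups. A gene was called at an adjusted p under 0.05. Fold changes are on the log2 scale with their SE, and CPM uses TMM-scaled library sizes. Intervals are the estimate ± 1.96 SE. The procedure was tested on simulated counts with 200 genes changed 2-fold, of which it recovered 150 in the genotype design, with 11 false calls among 15375 genes, and 190 in the Senexin design, with 18 among 15274. Nearly all changes of members were smaller than 2-fold, and the simulated libraries were independent of each other. The recovery therefore does not give the power for changes of the members' size. Precision is limited by 3 libraries a group, and the parts of sequencing depth and of spread between libraries in it were not separated.

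Members, gene lists and tests were chosen with earlier results of these data known. Members with values are up to 8 called per direction with the smallest adjusted p (3 with the smallest p where fewer than 3 were called), 11 core subunits and isoform groups. In the Senexin experiment same-numbered libraries deviated together in 3 of 4 pairs of groups for every number (correlations from 0.101 to 0.377, with differently numbered libraries reaching 0.188), and in the fourth, vehicle at both times, in 2 of 3. The pairing comes from these correlations, not from the labels. Alternatives were DESeq2 1.42.0, its size factors, no filter, at least 10 counts in every library, a replicate block, unstranded counts, only the groups compared, and leaving out each library. Promoters are RefSeq's, at 250 bases before to 50 after the first listed start, on GRCm38.p6.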

Additional observations from a re-analysis of the deposited data

How the results depend on the processing

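Median log2 fold changes of the members moved by less than the spread between replicates in 156 of 158 recomputed values, and counts of called members stayed within 1.5 times in 110 of 158. In the genotype experiment that spread was wide (SD of the library medians 0.20 in Cdk8KO, 0.17 in Cdk19KO and 0.24 in DoubleKO). It exceeded the size of the medians against WT, so even medians that changed sign count as unmoved there. Of 780 recomputed values for single members, 641 kept direction and side of the threshold, 105 lost the call, 27 gained it and 7 changed sign. Without the 2 libraries with Cdk19 at the WT level (an alternative chosen after seeing the data), called members numbered 1 in Cdk19KO, 15 in the double knockout, 39 in the double knockout against Cdk19KO (median 0.38) and 2 in the test of additivity (median 0.31), beside 4.21%, 19.0%, 28.5% and 4.6% of all genes. DESeq2 called 2 of 82 members in Cdk8KO, 6 with Senexin B at 16 h and 13 with Senexin B over time, beside 7.47%, 9.84% and 7.77% of all genes given an adjusted p. With no filter the counts were 1 in Cdk8KO, 2 in the double knockout and 4 with Senexin B at 16 h, beside 4.26%, 9.71% and 4.97% of all genes. Unstranded counts gave 1, 3 and 1 in these comparisons (5.65%, 18.3% and 7.65% of all genes). With only the groups compared in the fit, 2 members were called in Cdk8KO, 5 in the double knockout against Cdk19KO, 0 with Senexin B at 16 h, 11 over time in the vehicle and 12 over time with Senexin B, beside 6.26%, 19.2%, 4.86%, 2.57% and 7.31% of all genes.

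With the replicate number as a block, counts were 11 with Senexin B at 16 h, 48 at 24 h (all 43 calls among them), 64 over time in the vehicle and 12 over time with Senexin B, beside 14.8%, 36.9%, 21.2% and 9.18% of all genes. In the genotype experiment no pair of groups had all 3 same-numbered correlations over 0.1, so the samples share only a number, and there the replicate block gave 14 members in the double knockout against Cdk19KO (25.1% of all genes) and 4 against WT (16.8%). It gave 0 in each comparison that had 0.

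Leaving out each library in turn gave 0 to 1 called members in Cdk19KO, 1 to 9 in the double knockout, 3 to 25 in the double knockout against Cdk19KO, 0 to 1 for additivity, 0 to 8 with Senexin B at 16 h, 26 to 40 at 24 h, 11 to 62 over time in the vehicle and 0 to 4 over time with Senexin B. The shares of all genes called ranged over the same libraries from 0% to 3.27%, 8.47% to 15.4%, 15.1% to 27.1%, 0% to 2.93%, 4.18% to 11.6%, 16.9% to 24.2%, 2.75% to 14.6% and 1.42% to 5.27%, in that order. The lowest count with Senexin B at 24 h came without vehicle replicate 1, as did that over time. Sdha and Atp5b, neither of them called, changed sign with Senexin B at 24 h. Sdha had -0.0061 with at least 10 counts in every library, -0.0039 with only the groups compared, and -3.1e-05, -0.0114 and -0.0083 without vehicle replicate 1, vehicle replicate 3 or Senexin B replicate 2, with 0.0192 as the highest of the 6 values that leave out a library. Atp5b had -0.0105 without vehicle replicate 1 and -0.0170 without Senexin B replicate 2, with 0.0497 as the highest. The cause was not tested for any of these changes.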

Other observations

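Several members had far lower levels in the genotype libraries than in the Senexin libraries. Over 78 members the median ratio of Senexin to genotype CPM was 1.31, and 7 members were more than 4 times higher in the Senexin libraries while none was more than 4 times lower. Atp5g2, a c subunit gene of ATP synthase, had a median of 2.15 CPM against 151 CPM. Atp5g1, another gene for that subunit, had 10.9 against 202 CPM, and Cox7c had 8.92 against 197 CPM. The same held for Atp5l (6.32 against 111 CPM), Cox6c (39.2 against 232 CPM), Ndufab1 (29.9 against 122 CPM) and Ndufs5 (0.271 against 9.57 CPM). The experiments were counted and scaled separately, and the share of reads aligned to several places differed between them as given above. Other transcripts hold 38.4% of the 50-base words of Atp5g2, 22.1% for Cox7c, 21.7% for Ndufs5 and 11.1% for Atp5g1. For Atp5l, Ndufab1 and Cox6c the shares were 9.99%, 9.27% and 8.4%. Some members below 4 times had large shares too, as Atp5o (41.6%, ratio 0.352) and Ndufb6 (31.6%, ratio 1.87). The part of either share in these levels was not tested.

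In the double knockout and Cdk8KO libraries, cytosolic ribosomal protein mRNA summed to 11610 to 12966 and 12713 to 16144 CPM against 19646 to 19911 CPM in WT, which did not overlap. With Senexin B at 24 h the sum was 88994 to 93407 CPM against 68084 to 69464 CPM in vehicle, in the opposite direction.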
